A study of Saccharomyces cerevisiae with 11 samples.

Results

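The transcriptome of untreated wild type yeast in rich medium was described from the 3 arrays labelled as strain BY4741 that received no glucosamine, out of 11 arrays in a study of glucosamine treatment. BY4741 is a haploid laboratory strain of Saccharomyces cerevisiae and the parental strain of the study. Its overnight cultures in YPD, the yeast extract, peptone and glucose medium, were diluted 50-fold in fresh YPD and harvested at an OD600 between 1.6 and 1.8, with no drug or sugar analogue added. Hot phenol RNA was turned into biotin-labelled complementary RNA, and about 20 µg was hybridised for 16 h at 45 °C to the Affymetrix YG-S98 array. The arrays are called array 1, 2 and 3 after their replicate numbers, which have no order. The labels do not say whether they came from separate cultures, so the spread between them may be partly technical, and 3 arrays limit the precision of every value. No comparison with a treated culture was made, and no test was run.

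Each gene was represented by its brightest probe set, which gave 5656 genes, each with a signal on all 3 arrays. A signal is the brightness of a probe set after the authors' scaling. It also depends on the probes, so genes were placed in bands and no ratio between genes was formed. A gene was called near background where its mean signal was under 23.06, the value that 95% of the readings of 19 probe sets for Bacillus subtilis and mouse control sequences did not pass. It was called strong in the top 10% of genes and middling otherwise.

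Yeast in glucose ferments the sugar to ethanol even in air, and keeps many genes for respiration and for other carbon sources repressed. Growing cells put a large part of their transcription into ribosomes, and their messages for ribosomal proteins and glycolytic enzymes are among the most abundant in the cell. An a-type haploid makes the a pheromone and the receptor for the alpha pheromone, and does not enter meiosis.

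The 3 arrays had been brought to one level: their mean signal, after the top and bottom 2% of probe sets were left out, was between 500.4 and 500.5. Between 78.2% and 80.1% of probe sets were above the background limit. The 3′ over 5′ ratio of the actin gene ACT1, a measure of how complete the labelled RNA was, lay between 1.30 and 1.45, that of SPT15 between 3.38 and 3.53, and that of SRB4 between 1.86 and 3.24. Arrays 2 and 3 were the pair furthest apart. Over the 4172 genes with a mean signal of at least 100, the log2 signals of arrays 1 and 2 had a Pearson correlation of 0.976, those of arrays 1 and 3 of 0.968, and those of arrays 2 and 3 of 0.947. The genes are not independent, and the 3 pairs share arrays.

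The mating type and marker genes of the strain were looked at first. MFA2, which encodes the a pheromone, had signals of 4826.7, 5629.7 and 7512.3 on arrays 1, 2 and 3. MFA1, the other a-pheromone gene, had 2484.4, 4342 and 7043.9. Both genes were in the strong band, and both were highest on array 3. The 2 probe sets of MFA1 had means of 4623.4 and 342.6, so its band and array order hold for the brighter set alone. That set is a family probe set, which may also read similar sequences. STE2, the receptor for the alpha pheromone, had 917.4, 1365.6 and 1116, and BAR1, the protease that degrades that pheromone, had 1057, 1227.1 and 1442.1. STE6, the exporter of the a pheromone, had 414.4, 930.9 and 444.5, and AGA2, the a-agglutinin subunit, had 424.5, 661.4 and 583.3. These 6 of the 7 a-cell markers lay above the median gene. ASG7 did not, at 40.1, 36.2 and 49.6.

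The 4 alpha-specific genes were lower in the ranking. SAG1, the alpha-agglutinin, had 111.3, 188.7 and 138.4. The pheromone gene MF(ALPHA)1 had 91.7, 88.3 and 74, MF(ALPHA)2 had 43.4, 37.9 and 61.5, and STE3, the receptor for the a pheromone, had 33.1, 40.1 and 34.7. None of the 4 was near background by the control limit, although all were under the median gene.

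BY4741 is described as carrying a partial deletion of HIS3 and whole deletions of LEU2, MET17 (also called MET15) and URA3. URA3, for the last step of UMP synthesis, read 1.3, 6.7 and 2.5 and was near background on every array. A separate URA3 probe set among the array's controls read 1.7, 5.4 and 1.9. The other markers were above the control limit by their brightest probe sets. LEU2, of leucine synthesis, read 91.6, 63.7 and 68.5. HIS3, of histidine synthesis, read 637, 781.8 and 774.6. MET17, which makes homocysteine, read 1204.3, 684.1 and 1248.1, so it was above the median gene on all 3 arrays. The MET17 signal goes against the described genotype of the strain on the label. LEU2 has 3 probe sets, whose means run from 74.6 down to 19.3, so its place above the limit depends on the set read. The 2 sets of HIS3 had means of 731.1 and 250.5. The labels give the strain name without its alleles, and the source of these signals was not tested.

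Signals fell steeply with rank. The median gene had a mean signal of 234.5, and the strong band began at 1889.77. Its 566 genes, 10% of all, held 60.8% of the summed signal, and the top 100 alone held 23.1%. Of these 100 genes by mean, 92 or 93 were also in the top 100 of each single array, and 82 genes were in it on all 3. The 336 genes near background, 5.94% of all, held 0.0833% of the summed signal.

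**Figure D1:**
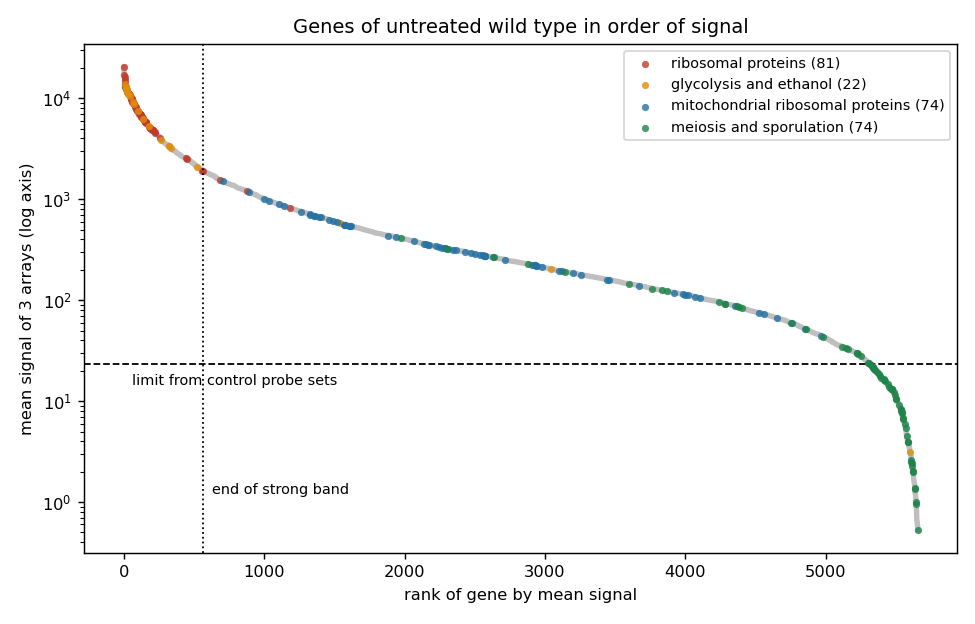
Mean signal of the 3 untreated arrays (log axis) against the rank of each of 5656 genes (grey line), with cytosolic ribosomal proteins, glycolysis and ethanol genes, mitochondrial ribosomal proteins and meiosis genes as coloured points. Ribosomal and glycolytic genes crowd the left end above a mean of 1889.77, mitochondrial ribosomal proteins lie in the middle, and 47 of 74 meiosis genes lie under the dashed control limit of 23.06.

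Functions were described with 63 gene lists that cover 1844 of the measured genes. The median of 27 lists lay at or above the 75th percentile of all genes, and that of 11 lists at or below the 25th percentile.

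**Figure D2:**
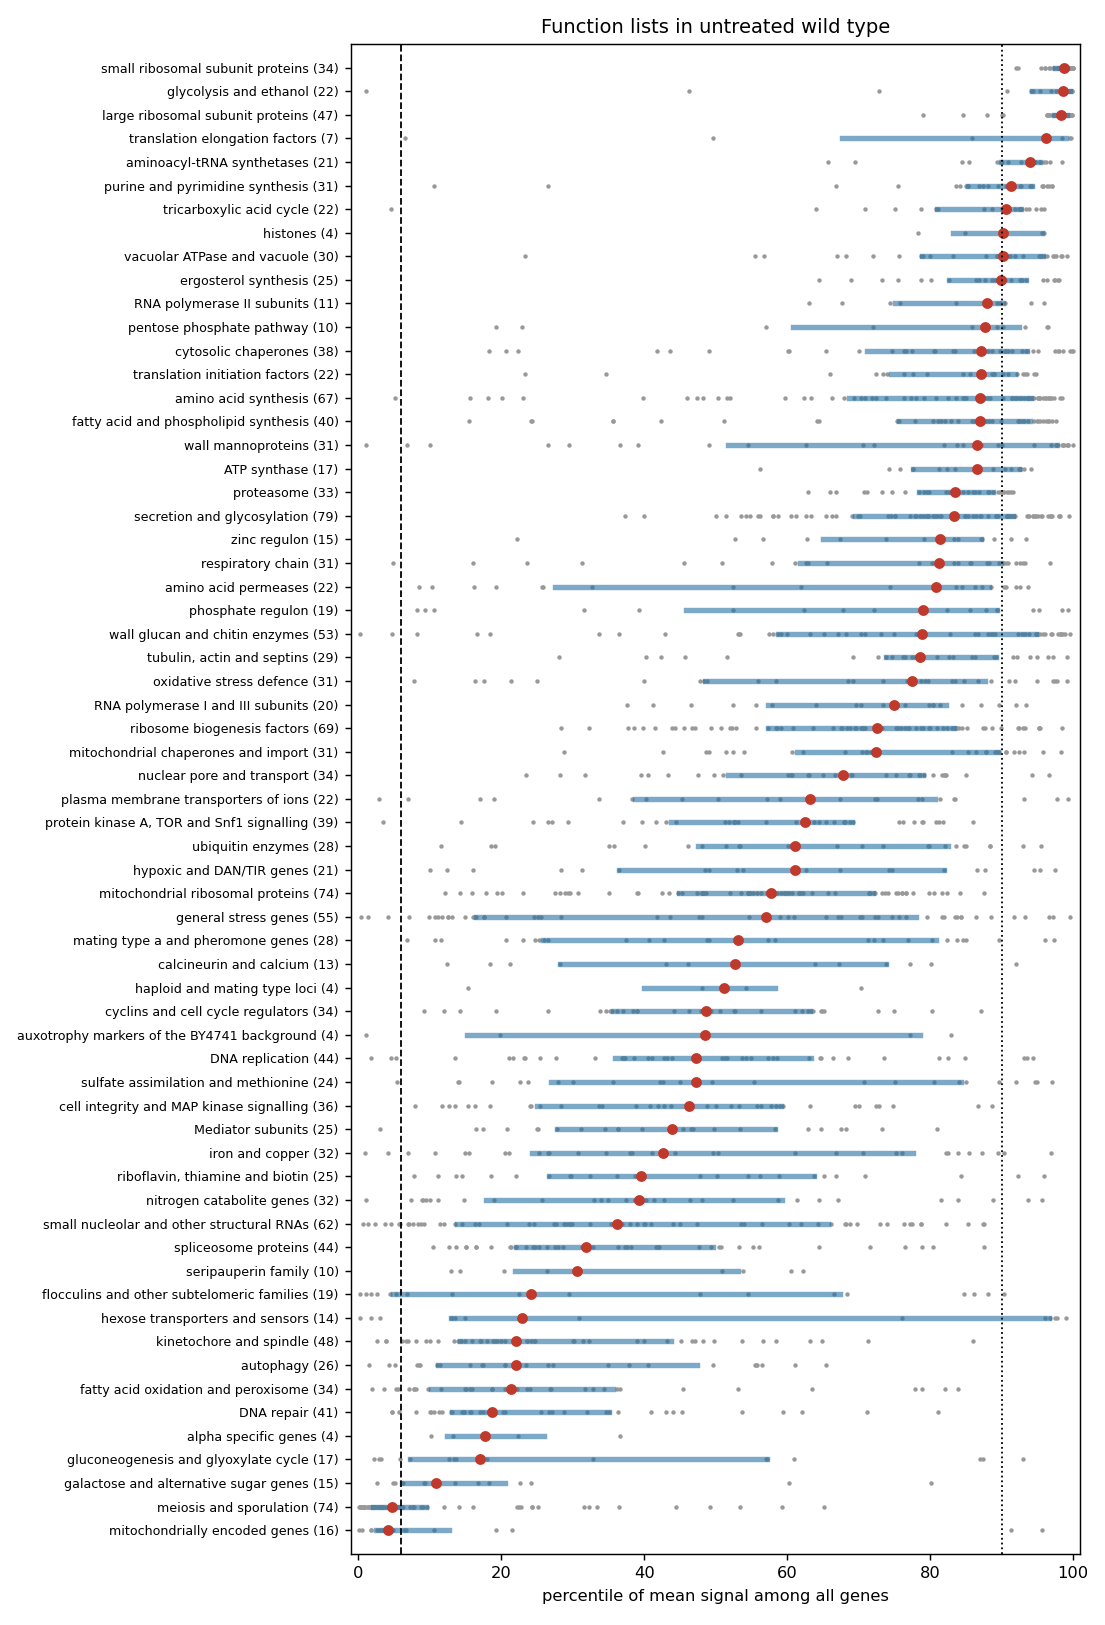
Percentile of mean signal among all genes, for each member (grey points) of the 63 function lists, with the list median (red) and the range of its middle members (blue bar), the number of measured members in brackets, the start of the strong band (dotted) and the control limit (dashed). Small ribosomal subunit proteins stand at the top with a median percentile of 98.7, and mitochondrially encoded genes at the bottom with 4.1.

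Protein synthesis stood at the top of the ranking. All 34 measured genes for proteins of the small ribosomal subunit were strong, with a median signal of 8469.5. Of 47 measured genes for the large subunit, 44 were strong, with a median of 7546.1. Copies of a duplicated gene were counted separately, and genes read only by probe sets with several names were not counted. The background share of strong genes was 10%. RPS22A, a small-subunit protein, had the highest mean of all genes, with 20600.3, 17760.5 and 22536.2 on arrays 1, 2 and 3 (mean 20299 ± 2402, SD, n = 3). RPL21B, of the large subunit, had 15460.4, 12147 and 18075.9. RPS21B had 17873.7, 12353.8 and 20696.4 and its near-identical copy RPS21A 17236.6, 11795.8 and 19767.6, and these copies cannot be told apart. All 4 were lowest on array 2 and highest on array 3.

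Not every copy of a duplicated ribosomal gene was strong. RPL15B had 631.2, 745.1 and 1070.8, RPL9A had 1416, 849.9 and 1319.6, and RPL22B had 1428.5, 1496.9 and 1706.1, all middling. RPL22A, the paralog of RPL22B, had 12432.5, 10763.6 and 15192.8. ASC1, a scaffold protein of the ribosome, had 13526.5, 11436.9 and 14156.4.

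The factors that work on the ribosome followed. HYP2, the translation factor eIF5A, had 14365, 10608.8 and 13944.2, and YEF3, the fungal elongation factor 3, had 11392.8, 10517.2 and 12637.9. HEF3, a paralog of YEF3, read 13.9, 51.4 and 10.8, just above the limit by its mean. Of 11 elongation factor genes listed, 7 were measured and 4 were strong. Of 21 aminoacyl-tRNA synthetases, which charge transfer RNAs, 14 were strong. FRS1, of the phenylalanine enzyme, led them with 6730.6, 7225.3 and 9338.3. Of 22 initiation factors, 8 were strong, with GCD11, a subunit of eIF2, at 3574.7, 3493.8 and 3660.

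Ribosome assembly stood lower, with 8 of 69 biogenesis factors strong and a list median of 570. NOP58, a core protein of box C/D small nucleolar particles, had 8266.5, 6232.7 and 9657.5, and was the brightest of them. At the other end UTP4, of the small-subunit processome, had 102, 97.2 and 131. RNA polymerase I and III subunits had a median of 645.5. Their largest subunit of polymerase I, RPA190, had 2793.9, 2776.4 and 3186.6.

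Fermentation stood equally high. Of 22 measured genes of glycolysis and ethanol formation, 19 were strong, with a median signal of 8126.5. ADH1, the alcohol dehydrogenase that forms ethanol, had 14613.9, 11345.9 and 15847.4 (mean 13935.7 ± 2326, SD, n = 3). TDH3, the main glyceraldehyde phosphate dehydrogenase, had 14240.7, 10231.5 and 14482.9, and TPI1, triose phosphate isomerase, had 13127.9, 11161 and 14221. Array 2 was the lowest for all 3. PGK1, CDC19 and ENO1, for phosphoglycerate kinase, pyruvate kinase and an enolase, were also among the 30 strongest genes, with means of 12385.8, 12044.6 and 11554.6.

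The exceptions were minor isozymes. PYK2, a second pyruvate kinase, had 242.8, 219.5 and 146. PDC5, a minor pyruvate decarboxylase, had 560.5, 629.8 and 540.3. PDC6, another one, read 2, 3.6 and 3.7, near background on all 3 arrays.

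The genes of glucose uptake were a few strong ones in a list of mostly weaker ones. Of 14 measured hexose transporter and sensor genes, 5 were strong, 6 middling and 3 near background. Over all genes 10% were strong and 5.94% near background. HXT3, a low-affinity transporter, had 9354.8, 9585.7 and 8965. HXT1, another low-affinity transporter, had 5290.5, 6205.8 and 6902.1. HXT6, a high-affinity transporter, had 7221.9, 8072.2 and 3756.1, and its near-identical copy HXT7 cannot be told apart from it. HXT6 was lowest on array 3, whereas HXT1 was highest there. HXT14 read 1.2, 0.8 and 0.5, and HXT10 read 10.5, 4.6 and 2.7.

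The cell wall and the secretory route held many strong genes. CCW12, a mannoprotein of the wall, had rank 3 with 17860.5, 13306.1 and 18776.4. The mannoproteins CIS3 and CWP2 had 11145.2, 10009.4 and 11487, and 11755.4, 7784.7 and 12496. Of 31 wall mannoproteins 13 were strong, while FLO1, a flocculin, read 2.8, 5.6 and 1.3. Of 53 enzymes of glucan and chitin 19 were strong. GAS1, which elongates wall glucan, had 11334.9, 9771.2 and 13006.8, and CTS1, the chitinase of cell separation, had 8106.3, 8755.5 and 10269.6. CDA1, a chitin deacetylase of the spore wall, read 0.8, 0.9 and 1.2. Of 79 genes of secretion and glycosylation 27 were strong and none near background, led by the GTPase gene ARF1 with 11749.2, 8448.3 and 13412.2.

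Chaperones included some of the brightest genes. The Hsp70 genes SSA1 and SSA2 had 16363.4, 13315.9 and 20238.6, and 16790.5, 11621.1 and 15733.7, and are similar enough in sequence that they may share probe signal. SSA3, a stress-induced member of the same family, had 92.8, 72.4 and 65.8. CPR1, the cytosolic cyclophilin, had 12311.6, 9799.4 and 13095.1. In all, 16 of 38 cytosolic chaperone genes were strong.

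Biosynthesis was strong to middling. Of 67 genes of amino acid synthesis 30 were strong, with a median of 1435.8. HOM6, homoserine dehydrogenase, had 7035, 8113.6 and 8294.7, and ILV5, of the branched-chain pathway, had 6651.5, 6705.7 and 8246.2. ARG3, of arginine synthesis, read 14.3, 23.6 and 19.7, and was the 1 gene of the list near background. Purine and pyrimidine synthesis had 18 of 31 strong, with IMD4, an IMP dehydrogenase, at 5418.4, 5109.1 and 6002. ADE4, the enzyme that starts purine synthesis, had 78.3, 107.6 and 116.8.

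Sterol and lipid synthesis stood at a like place. Of 25 ergosterol genes 12 were strong, with ERG2 at 6886.9, 7040.9 and 7423.4. Of 40 genes of fatty acid and phospholipid synthesis 16 were strong, with the fatty acid synthase gene FAS2 at 6733.3, 5907.6 and 6327.7. INO1, the inositol synthase, had 42.5, 81.9 and 48.2, and was the weakest of that list. The sulfate and methionine list was split: CYS3, of cysteine synthesis, had 5394.4, 5320.5 and 5713, while MET32, a regulator of sulfur genes, read 16.3, 24 and 21.8, and the list's median was 212.3.

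Transport of ions showed a few very bright genes. PHO84, the high-affinity phosphate transporter, had 10884.9, 9716.1 and 12083.1. PMA1, the proton pump of the plasma membrane, had 7485.6, 6075.1 and 5840.1, and its small companion PMP2 had 13158.6, 9594.7 and 12710. FET3, the oxidase of high-affinity iron uptake, had 5375.7, 4927.5 and 5504.3. SUL1, a sulfate transporter, read 1.8, 15 and 16.4, under the limit on all 3 arrays. In the vacuole, 15 of 30 genes were strong, with VMA3, the proteolipid of the vacuolar proton pump, at 10619.9, 9446 and 10916.6.

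Respiratory functions were measured well above background. Of 22 genes of the tricarboxylic acid cycle 12 were strong, of 31 of the respiratory chain 8, and of 17 of ATP synthase 7. IDH2, of isocitrate dehydrogenase, had 4539.1, 5118.4 and 3869. NDE1, an external NADH dehydrogenase, had 5647.7, 5954.7 and 3930.7, and ATP1, a subunit of ATP synthase, had 3696.9, 3188.1 and 2667.1. All 3 were lowest on array 3. CIT3, a minor citrate synthase, read 15.2, 18.4 and 17.1.

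Genes encoded by mitochondrial DNA were mostly near background, 9 of 16, against 5.94% of all genes. OLI1, subunit 9 of ATP synthase, had 4869.7, 1502.3 and 6412, and COX1, of cytochrome oxidase, had 1896.3, 2520 and 2393.2. VAR1, the mitochondrial ribosomal protein encoded there, read 10, 7.8 and 0.5. The second probe set of OLI1 had a mean of 2.1, and the 3 sets of COX1 had means from 2269.8 down to 54.4. The place of both genes thus rests on which set is read.

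The middling band, 4754 genes, held whole machineries. All 74 mitochondrial ribosomal proteins were in it, with a median of 308, a highest member MRPS12 at 1525, 1621.3 and 1351.3 and a lowest member MRP35 at 48.4, 44.6 and 39. All 34 cyclins and cell cycle regulators were in it too. CLN3, the G1 cyclin, had 1766.7, 1005.6 and 1590.4, and SWI4, a transcription factor of G1, had 38.1, 32.1 and 31.1. So were all 44 spliceosome proteins, led by the helicase gene PRP43 with 1324.8, 1634.3 and 1550.5, and all 36 genes of cell integrity and MAP kinase signalling, led by the wall sensor gene WSC2 with 1582.6, 1817.1 and 1660.8.

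Other lists with a median in the middling band had some strong or weak members. Strong genes made up 18.2% of the proteasome, 27.3% of RNA polymerase II and 6.82% of DNA replication genes, against 10% of all genes. The proteasome and RNA polymerase II lists had median percentiles of 83.4 and 88.0, so both stood above the 75th percentile of all genes. The proteasome had 6 of 33 strong and a narrow range, with PUP3 at 2279, 3014 and 1803.2 and RPT2 at 399.5, 346.1 and 377.5. RNA polymerase II had 3 of 11 strong, and its largest subunit RPO21 had 5198.8, 4495.8 and 3593.9. Among DNA replication genes 3 of 44 were strong and 3 near background. The share near background, 6.82%, was close to the 5.94% of all genes. The strong ones were ribonucleotide reductase genes, with RNR4 at 3526.5, 3356 and 3233. SLD2, needed to start replication, read 2.9, 2.3 and 12.7.

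The 11 lists with the lowest medians were varied. Besides the mitochondrially encoded, alpha-specific and hexose transporter genes described above, they held flocculins and other subtelomeric families, DNA repair, kinetochore and autophagy genes, with medians of 92.2, 70.2, 83.1 and 82.9. The other 4 were lists of alternative carbon sources and of sporulation. The galactose and alternative sugar list had a median of 39, with 3 of 15 near background, against 5.94% of all genes. GAL80, the repressor of the galactose genes, was its highest at 861.5, 937.8 and 801.7, and IMA5, an isomaltase, read 8.7, 16.2 and 4.6. Gluconeogenesis and the glyoxylate cycle had a median of 64. CAT8, the activator of these genes, read 12.4, 9.2 and 12.6, whereas MDH2, the cytosolic malate dehydrogenase, had 2404.7, 2807.1 and 3031. Fatty acid oxidation and the peroxisome had a median of 79.9, with POX1, the acyl-CoA oxidase, at 16.4, 16.3 and 27.8.

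Meiosis and sporulation was the list with the most members near background, 47 of 74, against 5.94% of all genes. SPO11, which cuts DNA in meiosis, read 1.2, 0.8 and 1. SPS22, a spore wall gene, read 0.4, 0.4 and 0.8, and shared the lowest mean of all genes. Of the 6 meiotic markers, 5 were near background. The exception was NDT80, the activator of middle meiotic genes, at 29.5, 31.2 and 39.9. The highest member of the list was CLB1, a cyclin also used in mitosis, at 390, 496.8 and 344.5.

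Stationary phase markers were split. SPG4 read 13.9, 19.4 and 14.4, and SIP18 read 1.4, 10.2 and 0.9, both near background. SSA3 and SNZ1 were middling, SNZ1 with 90.5, 131.9 and 120.3. HSP26, a small heat shock protein, had 100.6, 259.3 and 165.5, and HSP12, a membrane-binding stress protein, had 2378.9, 4015.1 and 889.6 and was strong. Both heat shock genes were highest on array 2.

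Near the limit the bands separate genes of almost the same signal. Just above it, BUB1, of the spindle checkpoint, had a mean of 23.5 and YPR096C a mean of 23.1. Just below it, ECM10, a mitochondrial Hsp70, had 22.9 and REC104, of meiotic recombination, 22.8. At the edge of the strong band, SRV2, an actin-binding protein, had 1889.77 and SDH3, of succinate dehydrogenase, 1888.53. Under the control limit on all 3 arrays were 255 genes, and under it on 1 or 2 arrays were 203 more. Genes that have only a systematic name made up 25.3% of the genes near background and 8.06% of all genes.

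Most genes varied little between the 3 arrays. Over the 4172 genes with a mean of at least 100, with signals under the control limit raised to it, the median SD of log2 signal was 0.20, and the median ratio of the highest to the lowest array was 1.30. A range of at least 2-fold was seen in 260 genes, 6.23% of these. Among protein-coding genes it was seen in 170 of 4056, 4.19%. The remainder was mostly short structural RNA genes, with 68 transfer RNA genes and 17 small nucleolar RNA genes. The grouping by type of RNA, and the ranking of protein-coding genes alone from which several genes below are named, were added after the values were seen.

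**Figure D3:**
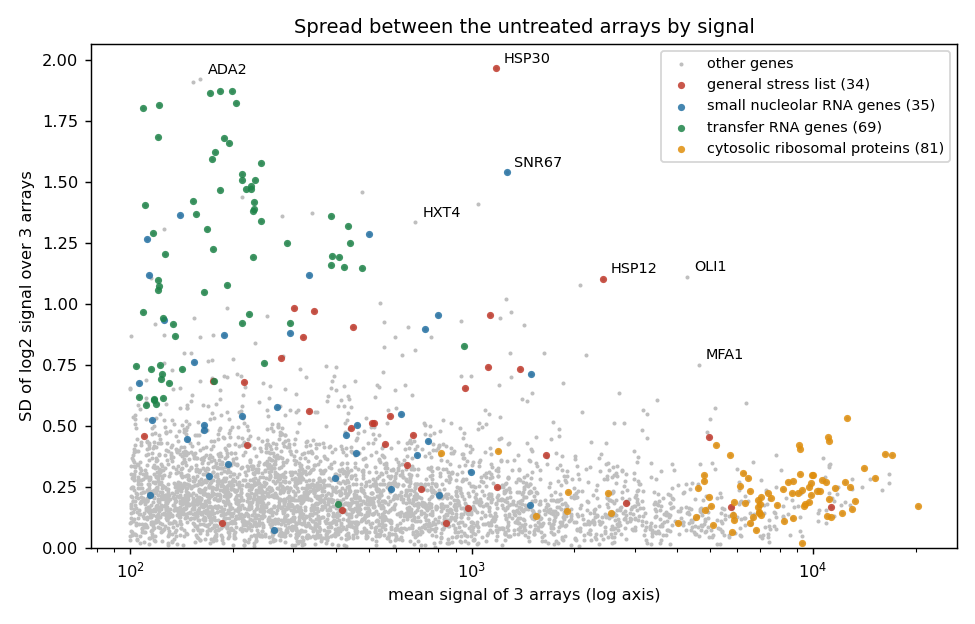
SD of log2 signal over the 3 arrays against mean signal (log axis) for genes with a mean of at least 100, with the general stress list, small nucleolar RNA genes, transfer RNA genes and cytosolic ribosomal proteins in colour. Transfer RNA genes and part of the stress list lie far above the median SD of 0.20, and all 81 ribosomal proteins stay under a 2-fold range.

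The transfer RNA genes moved as a block. All 69 with a mean of at least 100 were highest on array 3, against 31% of all such genes, and 68 were lowest on array 2, against 24.7%. The gene YNCL0044W had 74.4, 39.7 and 483.4 on arrays 1, 2 and 3, and YNCC0001C had 85.7, 32.9 and 430.7. SUF2, known for a frameshift suppressor allele, had 33.7, 27.8 and 264.9. Array 3 was far above the other arrays in each of these. Nearly all transfer RNA genes are read by probe sets made for families of near-identical sequences, so single genes cannot be told apart, and only 1 gene of this size is left without such sets.

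Other stable RNAs were also high on array 3. The list of small nucleolar and other structural RNAs had 40 members with a mean of at least 100. Of these, 31 were highest there, against 31% of all genes of this signal. A 2-fold range was seen in 19, which is 47.5%, against 6.23% of all such genes. RPR1, the RNA of RNase P, had 337.4, 128 and 968.8. SNR67, a guide RNA, went another way, with 1915.8, 277.7 and 1607.9, low on array 2 alone. The ribosomal RNA gene RDN25-1 read 168.9, 6.8 and 284. One control probe set for 25S ribosomal RNA read 2575.4, 20.4 and 3402.3, and another 41.7, 48.3 and 375.9. The 3′ over 5′ ratios of ACT1 and SRB4 were highest on array 3, at 1.45 and 3.24, whereas that of SPT15 was lowest there, at 3.38. The part of these measures in the spread of the RNA genes was not tested.

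Among protein-coding genes the spread had a direction. Of the 170 with a 2-fold range, 90 were highest on array 2 and lowest on array 3, which is 52.9%, against 26.9% of all protein-coding genes of this signal and 26.2% of all genes. HSP30, a stress-induced membrane protein, had the largest SD of any gene, 1.97 on the log2 scale, with 564, 2796.7 and 185.3 on arrays 1, 2 and 3. CIP1 had 957.3, 1901.6 and 275.8, and EGO4 had 112.3, 460.4 and 66.8. In each the 3 arrays stood well apart, with array 2 highest.

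**Figure D4:**
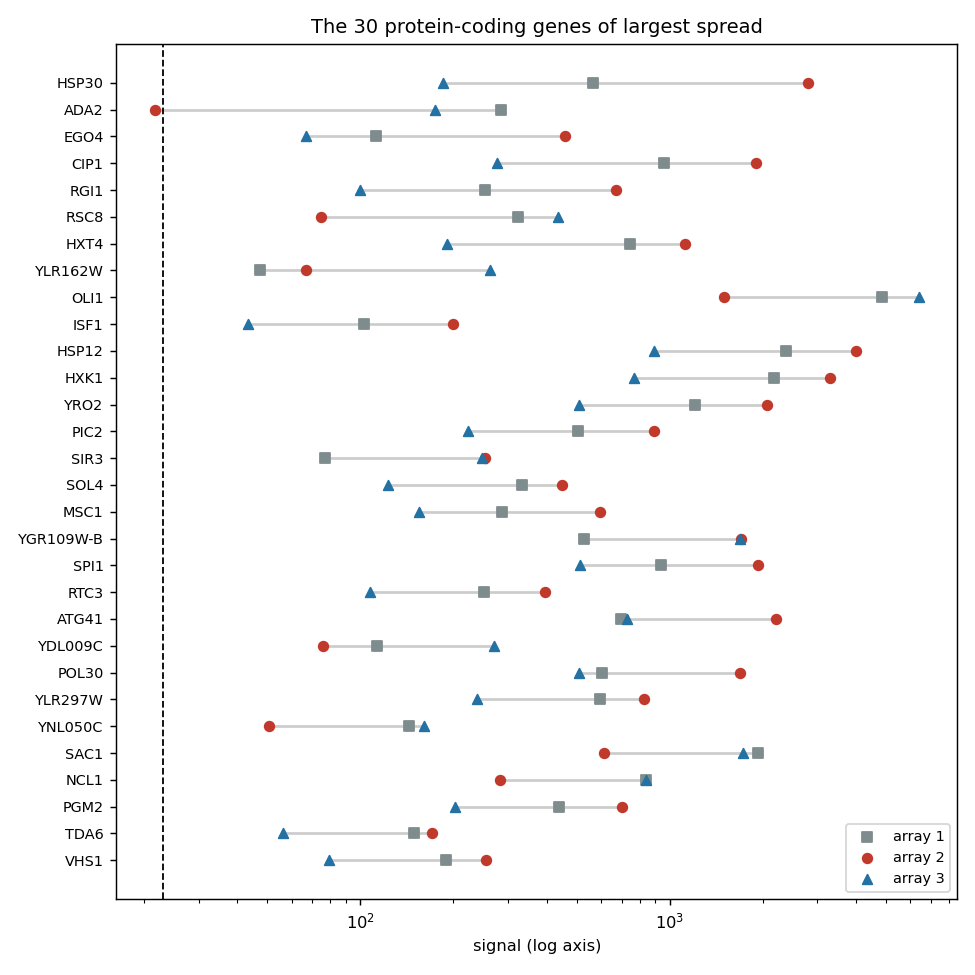
Signal on each of the 3 arrays (log axis) for the 30 protein-coding genes with the largest SD of log2 signal, in falling order from the top, with the control limit dashed. From HSP30 (2796.7 on array 2 and 185.3 on array 3) downwards most genes show array 2 at the right and array 3 at the left, while ADA2, RSC8, OLI1, YDL009C, YNL050C, SAC1 and NCL1 have array 2 at the left.

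The general stress list showed this pattern, although it held only 16 of the 170 protein-coding genes with a 2-fold range. Of its 55 measured genes 34 had a mean of at least 100, and 16 of these had a 2-fold range, which is 47.1%, against 6.23% of all genes. On array 2 33 of the 34 were highest, against 48.4% of all genes of this signal, and on array 3 30 were lowest, against 37.7%. DDR2, a stress-response gene, had 1498.9, 1940.1 and 725.3. SPI1, a wall protein of the stationary phase, had 940.8, 1932.7 and 514.2.

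Some genes of carbohydrate storage and its entry route also showed this pattern, and were picked after their values were seen. Storage genes had no list of their own, so no share of them is given. TSL1, of trehalose synthesis, had 1130.3, 1213.4 and 533.3. GLC3, the glycogen branching enzyme, had 291.9, 515 and 154.9, GPH1, glycogen phosphorylase, had 254.3, 428.8 and 145.7, and PGM2, phosphoglucomutase, had 440.3, 702.7 and 202.8. Each of these was highest on array 2 and lowest on array 3. Not all members of the stress list varied: HOR7, its brightest gene, had 11861, 9836.5 and 12166.2. In whole-culture RNA, fewer cells with a message and less of it per cell cannot be told apart.

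Some other genes, picked after their values were seen, had the same order. HXK1, a hexokinase repressed by glucose, had 2174.7, 3289.8 and 769.2. HXT4, a hexose transporter, had 742.3, 1120 and 190.6. MTH1, a regulator of the transporter genes, had 89.2, 164.2 and 49.1. Array 3 was the lowest for these 3 genes, but the hexose transporter list as a whole was mixed: of 7 genes with a mean of at least 100, 5 were lowest on array 3 and 2 highest there. HAP4, the regulatory subunit of the activator of respiratory genes, had 562.7, 789.7 and 294.2.

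The respiratory lists were low on array 3 as groups. All 17 genes of the ATP synthase list were lowest there, against 37.7% of all genes with a mean of at least 100. So were 25 of 28 respiratory chain genes and 17 of 21 genes of the tricarboxylic acid cycle with such a mean. OLI1, a mitochondrially encoded ATP synthase gene outside that list, went the other way, with 4869.7, 1502.3 and 6412. The median deviation of the 17 listed ATP synthase genes from their own 3-array mean was 0.21 on array 1, 0.17 on array 2 and -0.40 on array 3, on the log2 scale. INH1, the inhibitor of ATP synthase, had 765.8, 950.9 and 327.7, and RIP1, the iron-sulfur protein of complex III, had 2259.4, 2738.6 and 1301.7. Most of these genes did not reach a 2-fold range, but the share that did was above the 6.23% of all genes in 2 of the 3 lists. It was 3 of 17, 17.6%, in the ATP synthase list and 4 of 28, 14.3%, in the respiratory chain. In the tricarboxylic acid cycle it was 1 of 21, 4.76%.

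Ribosomal proteins differed by less and in another order. On array 2, 42 of 47 large-subunit and 34 of 34 small-subunit genes were lowest, against 24.7% of all genes of this signal, with a median deviation of -0.23 in both lists, and none had a 2-fold range. After quantile normalization of the 3 arrays this deviation was -0.06 for the large and -0.09 for the small subunit. Glycolysis had a deviation of -0.17 on array 2 as deposited, and 0.05 after quantile normalization, so its direction depended on the scaling. The deviations of the stress list hardly moved, 0.45 on array 2 and -0.49 on array 3 as deposited, and 0.43 and -0.49 after quantile normalization.

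**Figure D5:**
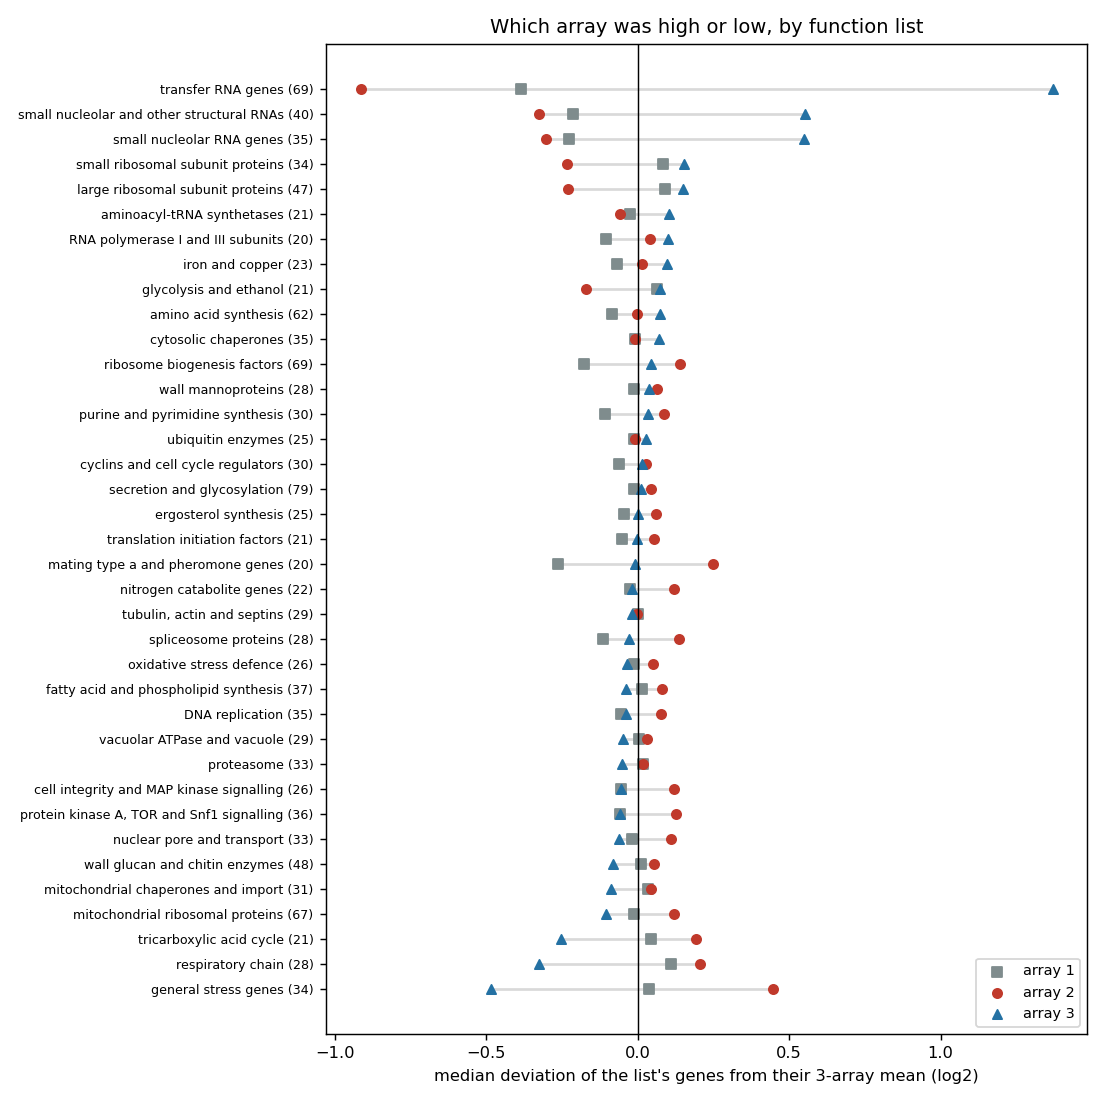
Median log2 deviation of the genes of each list from their own 3-array mean, for arrays 1, 2 and 3, in the lists with at least 20 genes of mean signal 100 or more (number in brackets), as deposited. Transfer RNA genes reach 1.37 on array 3 and -0.92 on array 2, and the general stress list runs the opposite way with 0.45 on array 2 and -0.49 on array 3.

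Array 1 was low for mating genes and for ribosome assembly. In the list of mating type a and pheromone genes, 15 of 20 were lowest on array 1, against 37.6% of all genes of this signal. On array 2, 15 of 20 were highest, against 48.4%. A 2-fold range was seen in 4 of the 20, against 6.23%. AGA1, the anchor of the a-agglutinin, had 774.2, 1616.8 and 1234.5, and FIG2, a wall protein induced by pheromone, had 73.9, 214.9 and 162.1. MFA1, MFA2 and BAR1 were the 3 members highest on array 3. Of 69 ribosome biogenesis factors 48 were lowest on array 1, against the same 37.6%, and none had a 2-fold range.

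Some single genes stood apart on 1 array. ADA2, of the SAGA coactivator complex, had 285.2, 21.6 and 174.5, and RSC8, of a chromatin remodelling complex, had 323.5, 74.6 and 435.1, both low on array 2. SAC1, a phosphoinositide phosphatase, had 1925.2, 611.6 and 1725.1, and NCL1, a transfer RNA methyltransferase, had 840.2, 282.1 and 837.8, low on the same array. POL30, the replication clamp PCNA, had 602.4, 1684.3 and 510.7, and ATG41 had 697.8, 2204.5 and 725.3, both high on array 2 alone. SIR3, of silent chromatin, had 76.6, 252.2 and 247.4, low on array 1 alone, as was the Ty3 retrotransposon gene YGR109W-B with 530.1, 1700.7 and 1688.4. The 23 probe sets of YGR109W-B had means from 1306.4 down to 0.2, so its array order holds for the brightest set alone.

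The 15 steadiest genes came from the strong and the middling band. CPR4, a cyclophilin of the secretory route, had 782.8, 785.6 and 780.8, with the smallest SD of log2 signal, 0.0044. RPT6, an ATPase of the proteasome, had 2061.2, 2071.9 and 2052.5, and PRP6, a splicing factor, had 228.6, 230.1 and 231. TAL1, the transaldolase, had 1968.7, 1960.8 and 1940.3. MCM7, of the replicative helicase, had 303.3, 303.8 and 307.9, and CHS2, the chitin synthase of the septum, had 591.2, 597 and 588.4. ACT1, often used as a standard, had 10974.5, 9178.2 and 10890.3, which is not among the 15 steadiest genes.

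Where a gene has several probe sets they often disagreed. Of 315 such genes, 156 had probe sets with means over 4-fold apart, which is 49.5%. PDR5, a drug exporter, ran between 5675.53 for its brightest set and 13.3 for its dimmest. Genes named above as the brightest of their lists were affected too. FAS2 ran between 6322.9 and 47, NOP58 between 8052.2 and 152.1, and RPA190 between 2919 and 24.8. For such genes the band holds for the brightest set alone.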

How the data were processed

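Transcript levels were measured on Affymetrix YG-S98 arrays, and the analysis began from the deposited table of 9335 probe sets. The signal values were made by the authors with GeneChip Analysis Suite, which also normalized them, per the labels. No label states its version or its settings. Of the probe sets, 60 were controls, 6504 had 1 gene name in the platform annotation and all of these matched RefSeq, 328 had several and 2443 none. Sets with several names or none were left out of the gene ranking.

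Means, SDs, ranks and lists were computed with Python 3.11.15, pandas 2.3.3 and numpy 2.4.6, and plots with matplotlib 3.10.9. For spreads, signals under the limit of 23.06 were raised to it, and genes with a mean under 100 were left out. The rule for a 2-fold range was tested on simulated data with the same spread for every gene. The bands and list summaries were not tested in this way. The members, lists and rules were chosen with earlier results of these data known, and 4 wrongly listed genes were taken out after their values were seen. The genes named were to be the 30 with the highest mean, the 3 strongest and 3 weakest of each list, the marker and auxotrophy genes, the 30 with the largest and 15 with the smallest SD, 5 genes on either side of the limit, and genes whose probe sets were over 4-fold apart. From these the text names a part, and the other genes it names were chosen after their values were seen. Alternatives were another limit, scaling, probe set rule, filter, floor, and leaving out each array. Promoter sequences were not analysed here.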

Additional observations from a re-analysis of the deposited data

Results flagged for a closer look

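Signal was also present in probe sets that the gene ranking did not use. Of the 2443 probe sets with no gene name here, 1231 had a mean over the 3 untreated arrays at or above the control limit of 23.06, and the brightest read 12870, 8938.7 and 11654.8 on arrays 1, 2 and 3. Of the 328 probe sets that match several genes, 290 did so, and the brightest read 21146.6, 17875.6 and 25500.5. Their sources were not tested. Single arrays were not examined as outliers, because a group of 3 is too small for that rule.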

How the results depend on the processing

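With the highest control value as the limit, 751 genes were near background, against 336. Median scaling, quantile normalization, another probe set rule, leaving out family probe sets and requiring all 3 arrays under the limit gave between 255 and 356, and leaving out 1 array gave between 305 and 343. The count of genes with a 2-fold range was 155 with a minimum mean of 200, against 260 with a minimum of 100. It was between 61 and 208 when 1 array was left out: 61 without array 3 and 126 without array 2, so arrays 2 and 3 carried much of it, and fewer arrays give a smaller range by construction. Of the 30 genes with the largest SD, 7 were shared when family probe sets were left out, which removes nearly all transfer RNA genes, and between 5 and 27 when 1 array was left out (5 without array 3 and 18 without array 2). Between 26 and 28 lists had a median at or above the 75th percentile under every alternative tried. Single lists were less steady. With the median over a gene's probe sets, the median signal of 13 of 63 lists shifted by at least its SD over the arrays. Without family probe sets 10 of 62 did. The largest percentile shifts were from 51.2 to 32.9 for haploid and mating type loci under the first rule. Flocculins and other subtelomeric families went from 24.2 to 13.4 under the second. No paired analysis was possible because no groups were compared. The planned share of promoters with a motif was not run.

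The data limit the account in several ways. There are 3 arrays, the labels do not say that the cultures were separate, and they name no batch. Signal compares a gene between arrays better than it compares genes. Low genes are bounded by 19 control probe sets, whose readings run up to 48.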

Other observations

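Genes outside every list made up 159 of the 566 strong genes, and a few of them are named here after their values were seen. TMA19, a protein that associates with ribosomes, had 12090.3, 9217.7 and 12051.6 on arrays 1, 2 and 3. SRL1, a mannoprotein, had 11636.4, 8477.1 and 12314.6. GCN4, the activator of amino acid synthesis genes, had 5299.5, 6589.6 and 7012.4; its protein level is known to be set mainly by translation, which these arrays do not measure. POR1, the porin of the outer mitochondrial membrane, had 7597.1, 7056.8 and 7492.3. Of the genes near background, 228 of 336 were in no list.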
